A study of Mus musculus with 2 samples.

Results

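The miR-183, miR-96 and miR-182 cluster is a group of 3 miRNA genes, Mir183, Mir96 and Mir182, on mouse chromosome 6. Its members were taken as the rows of the deposited count tables whose Ensembl identifier carries one of these symbols in GENCODE M21, and all 3 were found among the 1973 miRNA genes listed. The libraries hold small RNA, under 30 nt, from the stomachs of healthy B6NCrl mouse embryos at embryonic day 15.5, males and females together. Stomachs of 78 embryos went into replicate 1 and those of 62 embryos into replicate 2. Both libraries belong to 1 group without a second genotype, treatment or time, so the comparisons are between genes within a library and between the 2 pools.

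miRNAs are cut from hairpins in a primary transcript by Drosha and then Dicer, and they repress mRNAs that pair with the seed, bases 2 to 8 of the mature strand. The members of this cluster lie on the same strand, are known to come from a single primary transcript, and are best known from sensory organs such as the retina and the inner ear, where miR-182 is abundant in photoreceptors and mutations in the miR-96 seed cause hearing loss in mice and people. They are also found in other epithelia and in lymphocytes, and miR-182 and miR-96 are known repressors of the FoxO1 transcription factor.

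The mature sequences are shown first because the members are related through their 5′ ends. They are RefSeq sequences on GRCm38.p6, the mm10 assembly, and all 3 genes matched by symbol. The 5p arms read as follows, with the seed in capitals.
miR-182-5p (chr6:30165962-30165986, minus strand): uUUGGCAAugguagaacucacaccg
miR-183-5p (chr6:30169711-30169732, minus strand): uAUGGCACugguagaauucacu
miR-96-5p (chr6:30169506-30169528, minus strand): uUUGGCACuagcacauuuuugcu
Each 5p arm has a seed of its own, UUGGCAA in miR-182, AUGGCAC in miR-183 and UUGGCAC in miR-96, and positions 3 to 7, counted from 1 at the 5′ end, read UGGCA in all 3. Of 1738 mature mouse sequences in the RefSeq table, 5 carry these letters at these positions. Aligned from the 5′ end with no gaps, the seed of miR-182-5p differs from that of miR-183-5p at U2A and A8C (miR-182 base first) and from that of miR-96-5p at A8C alone. The seed of miR-183-5p differs from that of miR-96-5p at A2U (miR-183 base first).

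Along the rest of the strand, miR-182-5p and miR-183-5p were more alike than either was to miR-96-5p. miR-182-5p and miR-183-5p shared 18 of 22 aligned bases, 81.8%, including 12 of the 14 after the seed. By contrast, miR-182-5p shared 12 of 23 bases with miR-96-5p, 52.2%, and miR-183-5p shared 13 of 22, 59.1%, with only 5 of 15 and 6 of 14 bases identical after the seed.

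The only other mature sequence of the RefSeq table with the seed of miR-96-5p was miR-1271-5p, shown to compare the shared seed.
miR-1271-5p: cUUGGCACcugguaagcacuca
Its gene, listed as Gm24195 on chromosome 13, had 0 counts in replicate 1 and 2 counts in replicate 2, against 6557 and 6313 counts for Mir96. Of these genes with a shared 5p seed, Mir96 thus held nearly all the counts. No other mature sequence of the RefSeq table had the 5p seed of miR-182 or miR-183. That table matched 927 of the 1973 genes counted, and the seeds of the others were not examined. The 3p seed of miR-96, AAUCAUG, also occurs in miR-3475-5p, whose gene Mir3475 had 18 and 21 counts in replicates 1 and 2.

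The hairpins are printed to show where the arms lie, with both mature arms in capitals.
Mir182 (chr6:30165918-30165992, minus strand): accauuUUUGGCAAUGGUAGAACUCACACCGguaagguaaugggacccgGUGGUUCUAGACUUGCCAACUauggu
Mir183 (chr6:30169668-30169737, minus strand): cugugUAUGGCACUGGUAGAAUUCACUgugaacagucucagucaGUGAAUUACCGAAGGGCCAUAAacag
Mir96 (chr6:30169446-30169551, minus strand): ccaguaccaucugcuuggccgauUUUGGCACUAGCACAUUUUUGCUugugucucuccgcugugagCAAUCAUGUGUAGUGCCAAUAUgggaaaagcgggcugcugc
These intervals are identical to the GENCODE M21 gene intervals. The annotated hairpins are 75, 70 and 106 bases long in the order printed, and 18, 17 and 19 bases separate the arms, so the Mir96 entry is longer through its flanks and not through its loop. Their GC content was 48.0%, 45.7% and 50.9%, against a median of 51.7% over 1005 hairpins. The tables give 1 count per gene, so reads of the 5p and 3p arms cannot be separated.

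The cluster spans 3820 bases, from 30165918 to 30169737. In the direction of transcription Mir183 comes first, Mir96 follows after 116 bases and Mir182 after a further 3453. No GENCODE M21 gene other than the members lies within these 3820 bases. The nearest is the lincRNA Rncr4, on the opposite strand 3156 bases away (30172893 to 30175126). The nearest protein-coding gene on each side is Nrf1 (30047988 to 30153458, plus strand), 12460 bases away, and Ube2h (30211289 to 30304539, minus strand), 41552 bases away, with the misc_RNA gene Gm25580 (30143801 to 30144127, minus strand) 21791 bases away. No other miRNA gene of the tables lies within 50 kb. None of the 6 mature arms of the cluster occurred exactly, on either strand, in a transcript of another gene among 141767 GENCODE M21 transcripts. The closest stretch among the other RefSeq hairpins differed by 4 bases, for miR-183-5p in the Mir182 hairpin, so near-identical annotated copies, whose reads the tables set aside as matching several places, were not found for this cluster.

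The libraries held 5988677 sense-strand miRNA gene counts in replicate 1 and 6675498 in replicate 2, and 391 genes had at least 10 counts in each. A count of 0 allows up to 0.501 CPM (counts per 1000000 sense miRNA gene counts) in replicate 1 and 0.449 CPM in replicate 2. These limits and the intervals below take in counting error alone and treat each read as independent. PCR copies of a molecule are counted as separate reads, so the limits and intervals may be too narrow even for counting error. Epithelial miRNA genes, which mark the lining of the stomach, were present in both pools: the 8 epithelial genes compared, led by Mir429 and Mir200c of the miR-200 family, summed to 61238 CPM in replicate 1 and 55461 CPM in replicate 2.

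All 3 members were well measured, and they stood in the same order in both pools: Mir182 above Mir183 above Mir96. Mir182 had 22120 counts in replicate 1 and 22200 in replicate 2, or 3694 CPM (95% exact Poisson interval 3645 to 3743) and 3326 CPM (3282 to 3370). Mir183 had 15852 and 17796 counts in replicates 1 and 2, or 2647 CPM (2606 to 2689) and 2666 CPM (2627 to 2705). Mir96 had 6557 and 6313 counts, or 1095 CPM (1069 to 1122) and 946 CPM (923 to 969). The lowest Mir182 value lay above the highest Mir183 value, and the lowest Mir183 value above the highest Mir96 value, so the members' ranges did not overlap. The mean levels were 3510 ± 260 CPM for Mir182, 2656 ± 13.3 CPM for Mir183 and 1020 ± 106 CPM for Mir96 (SD, n = 2). These SDs hold for library totals and change with the scaling, as given below. In whole stomach, fewer cells that make a miRNA and less of it per cell cannot be told apart.

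**Figure D1:**
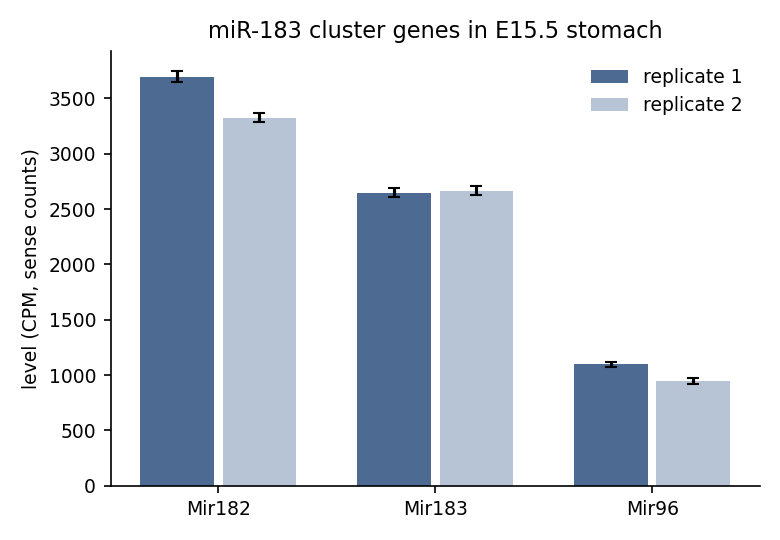
Levels of Mir182, Mir183 and Mir96 in CPM of sense miRNA gene counts, with a bar for each library and 95% exact Poisson intervals. In both libraries Mir182 is highest, at 3694 and 3326 CPM in replicates 1 and 2, and Mir96 lowest, at 1095 and 946 CPM.

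The order of levels is not the order along the transcript, since the most downstream hairpin, Mir182, was highest and the middle one, Mir96, lowest. On the log2(CPM + 1) scale Mir182 exceeded Mir183 by 0.40 ± 0.11 (SD, n = 2), a 1.40-fold difference in replicate 1 and a 1.25-fold difference in replicate 2. Mir182 exceeded Mir96 by 1.78 ± 0.04, or 3.37-fold and 3.51-fold in replicates 1 and 2. Mir183 exceeded Mir96 by 1.38 ± 0.16, or 2.42-fold and 2.82-fold. Each mean difference was larger than its SD between the pools and had the same sign in 2 of 2 libraries, but an exact sign-flip permutation test over 2 libraries cannot give a two-sided p below 0.5. These are differences in counted reads, which were not corrected for how well each sequence is captured in a library.

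**Figure D2:**
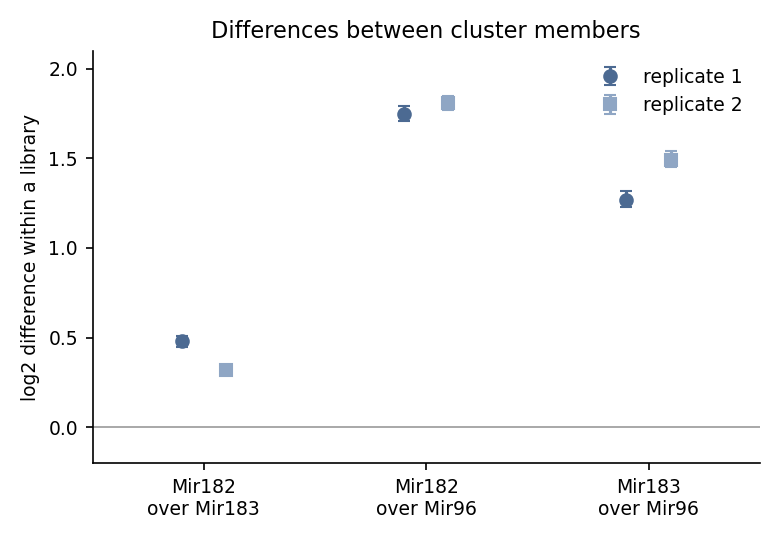
Log2 differences between pairs of members within each library, on the log2(CPM + 1) scale, with 95% exact Clopper-Pearson intervals. The 6 values lie above 0, and Mir182 over Mir96 changes least between the libraries, 1.75 in replicate 1 and 1.81 in replicate 2.

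As a share of the cluster's counts, Mir182 made up 49.7% in replicate 1 (95% Wilson bounds 49.2 and 50.1) and 47.9% in replicate 2 (47.5 and 48.4). Mir183 made up 35.6% (35.2 to 36.0) and 38.4% (38.0 to 38.9), and Mir96 14.7% (14.4 to 15.1) and 13.6% (13.3 to 13.9). Replicate 1 thus had relatively less Mir183 than replicate 2. Fisher's exact test, two-sided and adjusted by Benjamini-Hochberg over the 3 pairs, gave adjusted p = 2.98e-14 for the Mir182 to Mir183 ratio, which was higher in replicate 1 by 0.16 on the log2 scale. It gave adjusted p = 1.95e-13 for Mir183 to Mir96, which was lower in replicate 1 (log2 change -0.22), and adjusted p = 0.0382 for Mir182 to Mir96 (-0.06). The test sets 2 libraries against counting error alone and compares these pools, not conditions.

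Together the members held 0.744% of the sense total of replicate 1 (95% Wilson bounds 0.737 and 0.750) and 0.694% of that of replicate 2 (0.687 and 0.700), or 0.719% ± 0.0352 (SD, n = 2). Among the 1973 genes Mir182 ranked 48, Mir183 ranked 57 and Mir96 ranked 97 by mean CPM. The ranks of Mir183 and Mir96 were the same in each library, and Mir182 ranked 47 in replicate 1 and 50 in replicate 2.

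**Figure D3:**
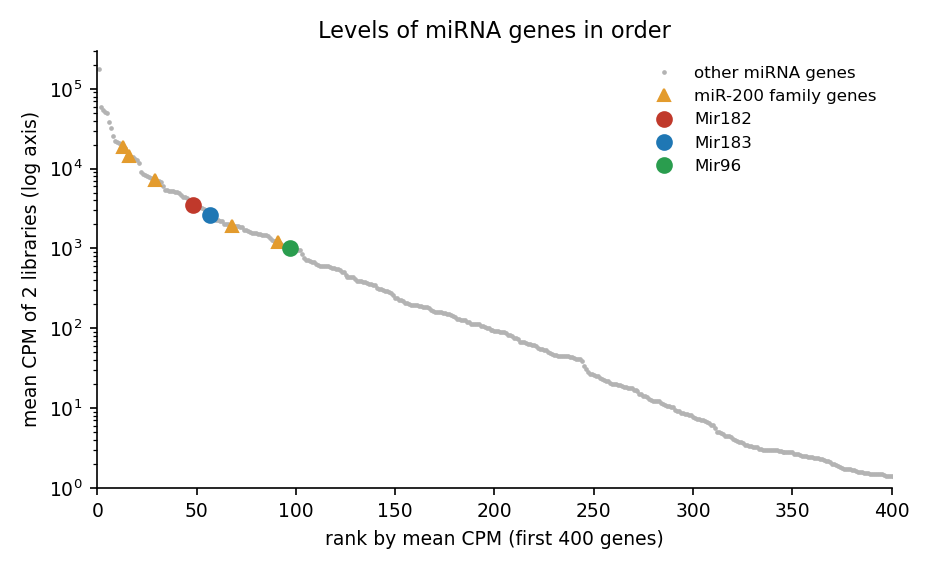
Mean CPM of 2 libraries (log axis) against rank for the first 400 miRNA genes, with the members and the miR-200 family marked. Mir182, Mir183 and Mir96 fall at ranks 48, 57 and 97, below Mir429 at rank 13 and Mir200c at rank 16.

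Neighbours in the order were mostly not separated by the spread between the pools. Around Mir182 stood Mir125a and Mir431 above and Mir149 and Mir423 below, at 3965, 3587, 3442 and 3403 CPM, and the range of each over the 2 libraries overlapped that of Mir182. Around Mir183, Mirlet7f-2 and Mir145a overlapped it, while Mir296 (2926 and 2718 CPM in replicates 1 and 2) lay above and Mir92-1 (2631 and 2453 CPM) below. That separation holds for library totals, with which the SD of Mir183 was 13.3 CPM. The SD of Mir183 was 181 CPM with edgeR's TMM and 217 CPM with DESeq2 size factors, and overlap was not examined there. Around Mir96, Mir433, Mir199b, Mir148a and Mir1983 overlapped it, at 1032 to 1015 CPM. The genes nearest in level over the 2 libraries, by Euclidean distance of log2(CPM + 1), were Mirlet7b for Mir182 (0.152), Mirlet7f-2 for Mir183 (0.0868) and Mir148a for Mir96 (0.113). With 2 libraries of 1 group such likeness describes level only.

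Set beside the 8 epithelial genes compared, the members lay below most of them and above Mir31. The members summed to 7436 CPM in replicate 1 and 6937 CPM in replicate 2. Of the 8 epithelial genes, 5 lay above Mir182 by mean CPM: Mir429 at 18732 ± 337 CPM, Mir200c at 14202 ± 326 CPM, Mir203 of stratified epithelium at 7638 ± 2271 CPM, Mir200b at 7293 ± 759 CPM and Mir205 at 6866 ± 1544 CPM (SD, n = 2). Mir31, at 501 ± 48.7 CPM, was the 1 epithelial gene below Mir96. Of 6 glandular genes, Mir375 (18049 ± 7315 CPM), also a miRNA of endocrine cells, lay above Mir182. By mean CPM 3 lay below Mir96, among them Mir148a, whose range over the libraries overlapped that of Mir96.

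Markers of nerve and blood cells were measured beside the cluster because its members are known from neurosensory cells and lymphocytes. The 13 neural and sensory genes listed summed to 1718 CPM in replicate 1 and 1534 CPM in replicate 2, led by Mir137 at 1240 ± 130 CPM (SD, n = 2), with 8 of the 13 at 10 counts or more in both libraries. Mir124a-1, Mir124a-2, Mir124a-3 and Mir9-2, genes of the main neuronal miRNAs, were at 0 sense counts in both libraries. They are numbered copies, however, whose shared reads may have been set aside. Mir9-3, a further miR-9 gene, had 19 and 18 sense counts in replicates 1 and 2. Mir204 and Mir211, known from the retina and its pigment epithelium, stood at 41.6 ± 2.07 and 1.53 ± 0.675 CPM. The 5 white blood cell genes listed summed to 1531 CPM in replicate 1 and 1308 CPM in replicate 2, most of it Mir223, a myeloid miRNA, at 1180 ± 95.6 CPM. Mir155 and Mir150, both lymphocyte miRNAs, were at 91.4 ± 15.7 and 20.0 ± 5.89 CPM, and Mir142b was at 0 on the sense strand, with 10569 and 7087 opposite-strand counts in replicates 1 and 2. The summed sense-strand level of each of these lists lay below the means of Mir182 and of Mir183, and above that of Mir96 (1020 CPM). Mir137 and Mir223 each had a mean above that of Mir96 as well. The sums leave out opposite-strand counts, such as those at Mir142b, and any reads set aside as multi-mapping, so they may be too low. The part of nerve and blood cells in the level of the cluster was not tested.

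The cluster had a narrow spread of levels among genomic miRNA clusters. Clusters were defined as listed miRNA genes on 1 strand with neighbours within 10 kb, of which 59 had a leading gene with at least 10 counts in both libraries. The span from the highest to the lowest gene was 1.78 ± 0.04 on the log2(CPM + 1) scale for Mir182, Mir183 and Mir96, against a median of 4.23 and a range of 0.36 to 13.50 over the 59. Smaller spans were found in 14 clusters and larger ones in 44. The nearest spans belonged to Mir99b with Mir125a (1.84), Mir653 with Mir489 (1.68), Mir451a with Mir144 (1.64) and Mir6546 with Gm27552 and Gm27844 (1.94). Mir653 with Mir489 summed to only 2.22 CPM, and Mir6546 with Gm27552 and Gm27844 to 2.98 CPM. In each only 1 gene had 10 counts in both libraries, so these spans are set largely by that gene and the pseudocount. Clusters differ in size, and genes with near-identical copies can be undercounted, so this is a description with no test.

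Only 4 clusters had exactly 3 listed genes, each with at least 10 counts in both libraries, and of these the miR-183 cluster had the smallest span. The others were Mir429, Mir200b and Mir200a (3.96 ± 0.13), Mir93, Mir106b and Mir25 (4.23 ± 0.04) and Mir23a, Mir27a and Mir24-2 (5.98 ± 0.18; SD, n = 2 each). Mir24-2, the lowest gene of its cluster at 227 CPM, is a numbered copy whose shared reads may have been set aside. The span of 5.98 may thus be too wide. Mir96, the lowest member here, was at 1020 CPM, near Mir200a, the lowest of the miR-200b cluster, at 1201 ± 88.5 CPM. The top genes stood farther apart, Mir182 at 3510 CPM and Mir429 at 18732 CPM.

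**Figure D4:**
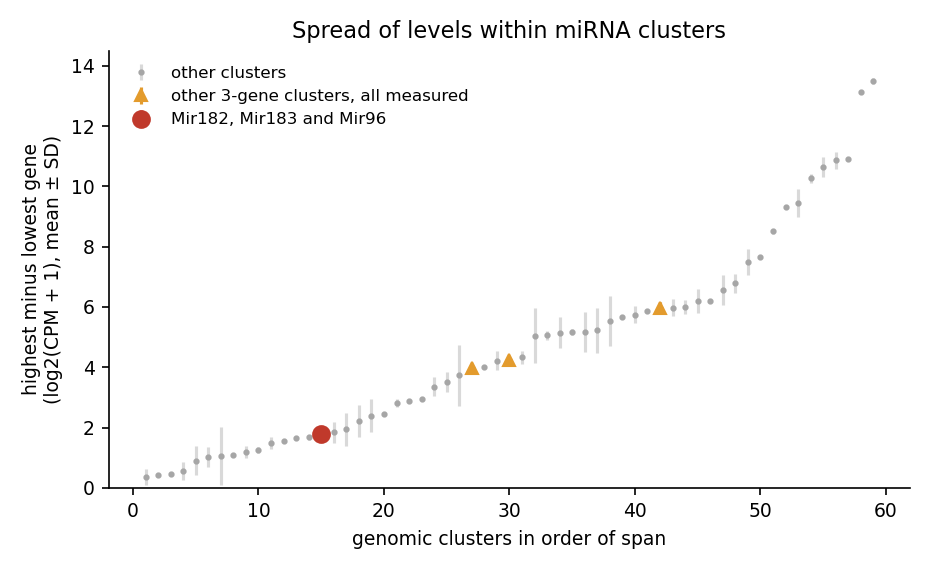
Span from the highest to the lowest gene of each of 59 genomic miRNA clusters, on the log2(CPM + 1) scale, as mean ± SD over 2 libraries, in order of span. The cluster of Mir182, Mir183 and Mir96, at 1.78, lies below the median of 4.23. It also lies below the other 3-gene clusters with at least 10 counts for every gene, at 3.96, 4.23 and 5.98. The span of 5.98 may be too wide, since Mir24-2 may be undercounted.

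Between the pools the members differed little. The log2 ratio of replicate 1 over replicate 2 was 0.15 for Mir182 (95% exact interval 0.12 to 0.18), -0.01 for Mir183 (-0.04 to 0.02) and 0.21 for Mir96 (0.16 to 0.26). The median tested gene had a ratio of 0.11 with these library totals, and relative to it the members stood at 0.04, -0.12 and 0.10. The sign for Mir182 depends on the scaling, since it was 0.02 with edgeR's TMM and -0.01 with DESeq2 size factors, while Mir96 stayed positive (0.08 and 0.05) and Mir183 negative (-0.14 and -0.17). With library totals the coefficients of variation were 7.42% for Mir182, 0.502% for Mir183 and 10.3% for Mir96. Which member agreed best changed with the scaling. The SD for Mir183 was 13.3 CPM with library totals, 181 CPM with TMM and 217 CPM with DESeq2 size factors. In the same order it was 260, 38.9 and 8.95 CPM for Mir182 and 106, 41.2 and 27.3 CPM for Mir96. Over all tested genes the biological coefficient of variation from edgeR was 20.1%, which corresponds to an SD of 0.41 for a log2 ratio between 2 libraries. The members' ratios were smaller in size than this SD, which is a single value for all tested genes. Genes near the members' level differed less: the median size of the ratio was 0.16 to 0.20 there, against 0.27 over all tested genes.

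None of the 3 members passed the exact binomial test between the libraries with its 2-fold limit, at a Benjamini-Hochberg adjusted p under 0.05 over 466 genes with at least 10 summed counts. In the background 27 of the 466 genes passed, 5.79%. With no fold limit Mir182 (adjusted p = 1.50e-27, exact binomial test) and Mir96 (adjusted p = 4.83e-16) were higher in replicate 1, and Mir183 did not pass (adjusted p = 0.668); the same 2 members had an unadjusted p under 0.05. Which members passed depends on the scaling. With TMM the exact binomial test gave adjusted p = 0.174 for Mir182, 6.33e-18 for Mir183 (lower in replicate 1) and 0.00317 for Mir96. With DESeq2 size factors the same test gave adjusted p = 0.833 for Mir182, 2.15e-25 for Mir183 (lower in replicate 1) and 0.0676 for Mir96. Without the limit 46.4% of tested genes passed in either direction and 33.3% were higher in replicate 1. edgeR's exact test gave p = 0.956 for Mir182, 0.736 for Mir183 and 0.842 for Mir96, unadjusted. Its dispersion came from the same libraries taken as replicates, so the difference between the pools was already counted as noise. A typical gene could therefore hardly pass, and these p-values do not measure agreement. At this depth ratios far under 2-fold pass a test against counting error alone.

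**Figure D5:**
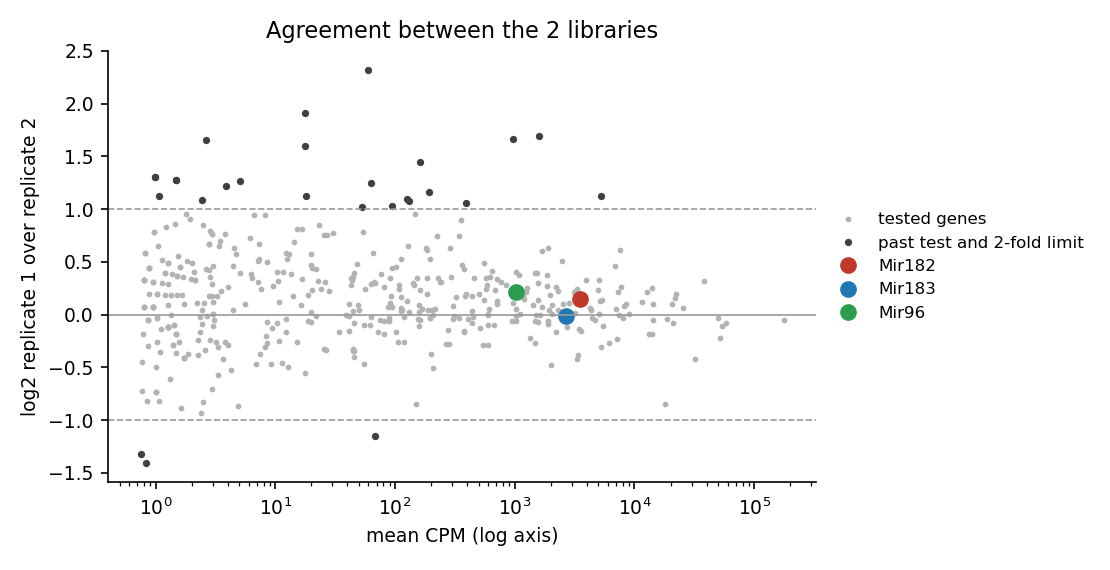
Log2 ratio of replicate 1 over replicate 2 against mean CPM (log axis) for 466 tested genes, with dashed lines at the 2-fold limit. Mir182 at 0.15, Mir183 at -0.01 and Mir96 at 0.21 lie inside the limit, while 27 genes, in dark, passed the test and the limit.

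Agreement was also measured within the cluster. The members' ratios between the libraries spanned 0.22 on the log2 scale. Of 42 genomic clusters with at least 2 genes at 10 counts in both libraries, 14 had a narrower range, and the median was 0.39. Of the 36 clusters in which every gene had 10 counts in both libraries, 14 were narrower and the median was 0.31. Of the 4 such clusters of 3 genes, 1 was narrower and the median was 0.24, close to the value here. Among genes within 2-fold of each member's level, the median size of the log2 ratio was 0.16 for 40 genes around Mir182, 0.16 for 50 around Mir183 and 0.20 for 58 around Mir96. Of these, 19, 4 and 29 had a smaller ratio in size than the member. These counts use library totals; with TMM and with DESeq2 size factors Mir183 was the member farthest from a ratio of 0.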

How the data were processed

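The deposited values are raw counts of reads for each miRNA gene, made for mm10 with GENCODE M4 according to the description files deposited with them. Names of the aligner, trimmer and counter were not given in the sources used here. Columns carry no names; the middle and last counts of a gene row always add up to its leading count and were taken as sense and opposite strand. Lines that name no gene were left out of totals. Of 11558785 reads in replicate 1 and 12633753 in replicate 2, 25.5% and 27.0% were multi-mapping, 18.0% and 16.2% unmapped and 2.92% and 2.26% in no listed gene.

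CPM were sense counts over summed sense gene counts, as mean and SD of 2 biological replicates. Gene names and positions are those of GENCODE M21, also on mm10, where 1894 of 1973 identifiers matched, and sequences from RefSeq on GRCm38.p6. The pseudocount was 1 CPM. Ratios between libraries are replicate 1 over replicate 2. Genes with at least 10 summed counts were tested with the exact conditional binomial test (two-sided), adjusted over all of them. Dispersion and TMM were from edgeR 4.0.16 (intercept-only design) and size factors from DESeq2 1.42.0, in R 4.3.3; other steps used Python 3.11.15, scipy 1.17.1 and pandas 2.3.3. The exact binomial test was run on simulated counts with counting noise alone, without spread between pools. The dispersion estimate was run on counts simulated with a set spread. Alternatives covered scaling, library total, strand, count minimum, fold limit, pseudocount, cluster distance and leaving out each replicate. Named genes were the members, the 2 next above and below each in level, and the nearest in level. Genes sharing a seed, the leading genes of the lists and the clusters of nearest span were also named. The other 3-gene clusters, Mir31, Mir205, Mir150, Mir155, Mir204, Mir211, Mir9-3 and the genes at 0 were named after their values were seen. Members and lists were chosen with earlier results of these data known.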

Additional observations from a re-analysis of the deposited data

Results flagged for a closer look

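The opposite-strand column is not used in the comparisons, and in replicate 2 it held more counts at Mir183 and Mir182 than the 3 counts that a count of 0 allows. At Mir183 there were 3 such counts in replicate 1 and 10 in replicate 2, which is 0.0189% and 0.0562% of its counts on both strands. Mir182 had 1 in replicate 1 and 5 in replicate 2, or 0.00452% and 0.0225%. Mir96 had 0 in both. No annotated gene of GENCODE M21 lies on the opposite strand of a member.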

How the results depend on the processing

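No paired analysis was possible because both libraries belong to a single group. With all reads of the tables as the total, the levels became 1835 CPM for Mir182, 1390 CPM for Mir183 and 533 CPM for Mir96, and the share of the cluster 0.376%, by construction. With both strands counted, the level of Mir183 was 2571 CPM and the ranks of Mir182, Mir183 and Mir96 were 51, 62 and 104, since genes with opposite-strand counts then enter the order. The Mir182 ratio between the libraries turned to -0.01 with DESeq2 size factors. The 27 genes called became 13 with pseudocount 5, 4 under edgeR's exact test, 16 when 100 summed counts were required and 216 once the fold limit was dropped, and 22 to 31 under the other settings; a member was among them only with no fold limit. Of the 27, 24 were higher in replicate 1; with DESeq2 size factors it was 16 of 22. The share of other genomic clusters with a smaller span, 24.1%, became 20.7% with pseudocount 0.5, 31.0% with pseudocount 5, 23.6% with a distance of 5 kb, 22.1% with 50 kb, and 25.9% without either replicate. It was 25.7% when every listed gene had 10 counts, an alternative chosen after seeing the data. With no fold limit, the members that passed were Mir182 and Mir96 with library totals, Mir183 and Mir96 with TMM, and Mir183 alone with DESeq2 size factors. The differences between members were the same to 2 decimals under each pseudocount and with both strands. With 1 library left out they are the other library's own value: 0.32 to 0.48 for Mir182 over Mir183, 1.75 to 1.81 for Mir182 over Mir96 and 1.27 to 1.49 for Mir183 over Mir96. Depth limits genes under about 10 counts, not the members.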
